A study of Bos taurus with 138 samples.

Results

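Transcripts for the storage and the oxidation of fatty acids were followed from the bovine oocyte to the blastocyst, in whole-cell RNA and along sucrose gradients that separate mRNA by its load of ribosomes. The genes were a list of 10 given by name, with no cut on their levels in the rule, and drawn up with earlier results of these data known. They encode coat proteins of the lipid droplet (PLIN2 and PLIN3), enzymes of triacylglycerol synthesis (DGAT1 and DGAT2), the lipase PNPLA2, the carnitine palmitoyltransferases CPT1A and CPT2, and the mitochondrial oxidation enzymes ACADM, ACADVL and HADHA. Of these 10, 9 had a row among the 16706 gene symbols of the table and all 9 passed the filter on low counts. DGAT2 was not analysed here.

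Bovine oocytes are rich in lipid droplets, which hold triacylglycerol under a coat of perilipins and serve as a store of fuel. DGAT1 joins the last fatty acid to diacylglycerol, and PNPLA2 (adipose triglyceride lipase) removes the first one when the store is used. Long-chain acyl groups enter mitochondria as carnitine esters made by CPT1A and undone by CPT2, and are then shortened by beta-oxidation, in which ACADVL and ACADM open the cycle on very long and medium chains and HADHA, the alpha subunit of the trifunctional protein, acts on long-chain intermediates.

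The groups were 6 stages of Bos taurus development. Germinal vesicle (GV) oocytes were aspirated from follicles of slaughterhouse ovaries, metaphase II (MII) oocytes were matured in vitro, and 2-cell embryos, 8-cell embryos, morulae and blastocysts came from in vitro fertilisation with frozen semen of 1 Holstein bull and in vitro culture, with only embryos of the best grade kept. Oocytes and embryos were pooled, all were exposed to cycloheximide to hold ribosomes in place, and their zona pellucida was removed, so no value belongs to a single animal and a blastocyst pool mixes trophectoderm with inner cell mass. At each stage 2 gradients (A and B) were cut into 10 fractions, F1 (lightest) to F10 (heaviest), and 3 transcriptomes (A, B and C) were made from whole oocytes or embryos of the same batches. The study's methods treat F1-F2 as free RNA, F3-F5 as monosomes and F8-F10 as polysomes.

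Each fraction library held between 1229382 and 17342859 counts, each transcriptome between 3269386 and 11812567, and each polysome pool, made by summing F8, F9 and F10 of a gradient, between 22543733 and 39380640. Levels are CPM, counts relative to the library total with TMM scaling, and because they are not per length they are compared only within a gene. In all 78 pairs of libraries of 1 stage and fraction or transcriptome the counts differed beyond sampling noise (lowest chi-square per degree of freedom 13.0). Some libraries stood apart: MII F10 of gradient B had 7396 genes detected against 11341 in gradient A (r = 0.70), and morula F9 of gradient A had 5714 against 11609. Of the 180 fraction values of the 9 genes at each stage, 33 were 0 at the 8-cell stage, 13 in morulae and 9 in blastocysts, against 1, 4 and 5 in GV oocytes, MII oocytes and 2-cell embryos. The 8 oocyte markers summed to 12089 CPM or more in every transcriptome up to the 2-cell stage and to at most 1678 from the 8-cell stage on. The 5 trophectoderm markers summed to at least 5088 CPM in blastocyst transcriptomes and at most 463 before. In polysome pools they summed to between 2050 and 4960 CPM in morulae already, and to at least 12342 in blastocysts. In bulk pools, fewer cells that carry a transcript and less of it per cell cannot be told apart.

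For each stage, the polysome pools were first compared with the transcriptomes, in edgeR's quasi-likelihood test over 14612 genes (call at an adjusted p below 0.05, Benjamini-Hochberg). In GV oocytes 5 of the 9 genes were higher in polysomes (22.2% of all genes were) and 0 were lower (17.7%; 39.8% in either direction). MII oocytes had 6 genes higher (30.8%) and 2 lower (26.7%; 57.5% in either direction), and 2-cell embryos 5 higher (29.1%) and 2 lower (21.9%; 51.0%). Embryos of 8 cells had 5 higher (28.0%) and 3 lower (31.0%; 59.1%), morulae 5 higher (26.5%) and 2 lower (25.2%; 51.7%), and blastocysts 4 higher (20.0%) and 1 lower (20.1%; 40.1%). This makes 40 calls in 54 tests, 30 higher and 10 lower, where 49.9% of all gene and stage pairs were called. The median log2 fold change of the 9 genes lay between 0.59 in blastocysts and 2.04 in GV oocytes, where the median of all genes was -0.08 and 0.00. PLIN3, CPT1A and ACADVL were called higher at all 6 stages, DGAT1 at all but the blastocyst, and PNPLA2 at all but the 8-cell stage. ACADM was called lower at 4 stages and PLIN2 at 3. Of the 40 calls, 23 held in every refit that left out 1 library.

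**Figure D1:**
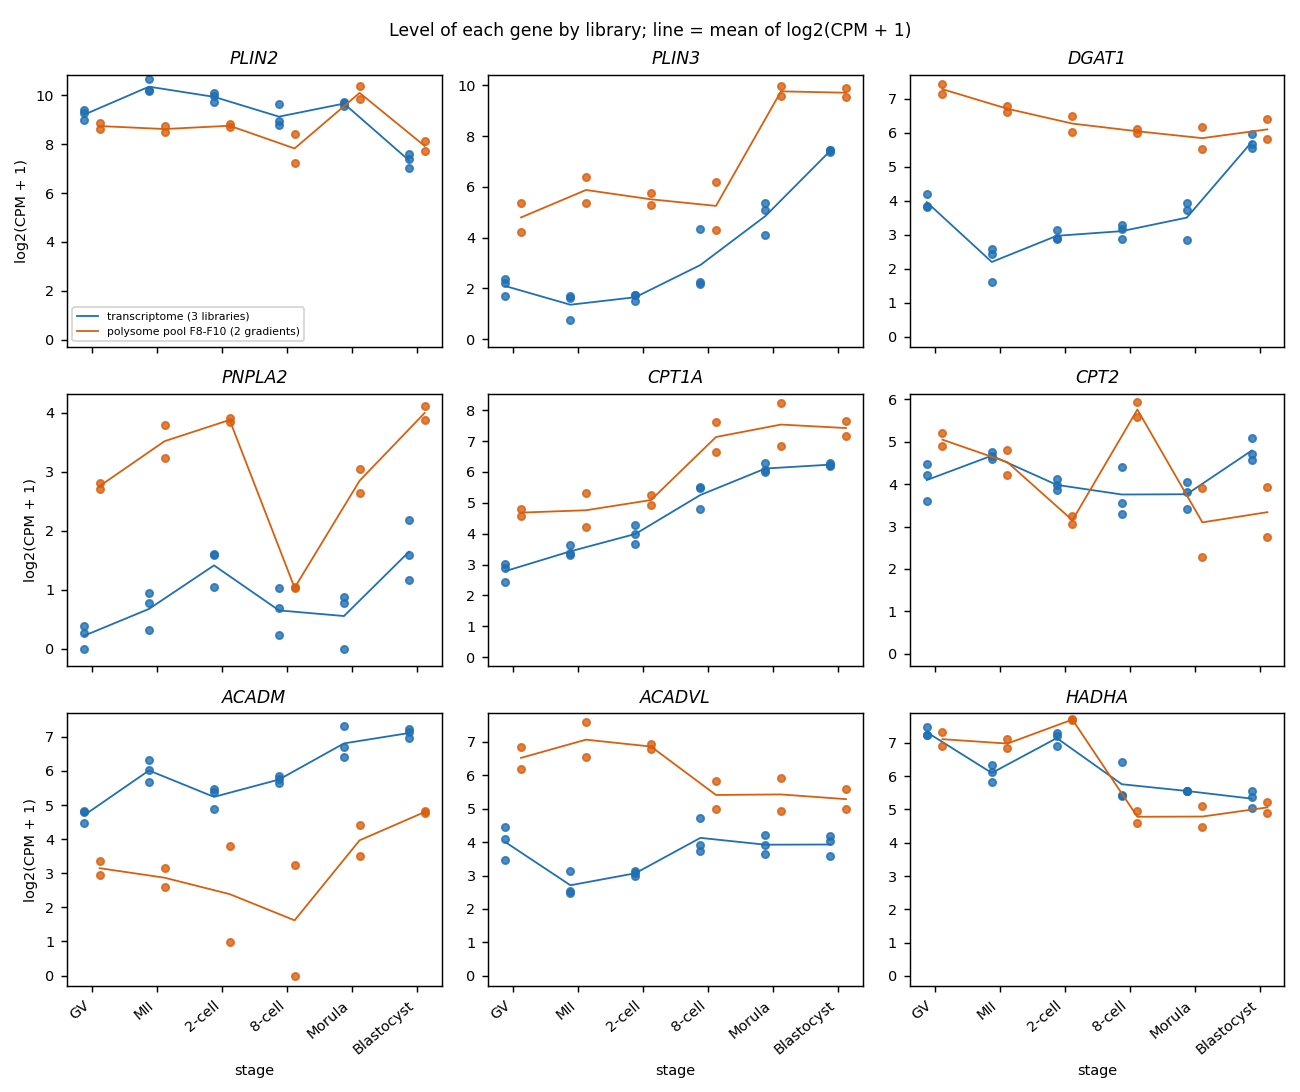
Level of each gene, as log2(CPM + 1), against stage, with a point for each transcriptome (blue, 3 per stage) and each polysome pool (orange, 2 per stage) and a line through the means of the points. PLIN3, DGAT1 and ACADVL lie higher in polysomes through most of development, ACADM lies lower throughout, and PLIN2 polysome pools rise above the transcriptomes only in morulae and blastocysts.

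PLIN2, the coat protein found on most droplets outside adipose tissue, lay below its whole-cell level in the polysomes of MII oocytes and of 2-cell and 8-cell embryos. GV transcriptomes had 616, 669 and 502 CPM and GV polysome pools 393 and 467, and the groups did not overlap, but the difference (log2 -0.47, SE 0.31, adjusted p = 0.239 in edgeR) was not called. MII transcriptomes reached 1166, 1187 and 1632 CPM while the MII pools stayed at 428 and 362, so polysomes were 3.36-fold lower (log2 -1.75, SE 0.33, adjusted p = 8.25e-05). In 2-cell embryos the transcriptomes had 1101, 1014 and 851 CPM and the pools 450 and 415, a 2.29-fold difference (adjusted p = 0.00339).

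In 8-cell embryos PLIN2 had 804, 494 and 442 CPM in transcriptomes and 346 and 148 in pools, 2.35-fold lower in polysomes (adjusted p = 0.00231), and gradient B set much of this: without its pool the log2 difference was -0.74 with an adjusted p of 0.0766. Morulae turned the order. Their transcriptomes had 766, 828 and 844 CPM and their pools 914 and 1324, with both pools above all transcriptomes but no call (log2 0.46, SE 0.31, adjusted p = 0.209). Blastocyst transcriptomes fell to 194, 128 and 168 CPM and pools to 281 and 211, again without overlap and without a call (log2 0.59, adjusted p = 0.128).

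PLIN3, a perilipin that moves between the cytosol and nascent droplets, was scarce in whole-cell RNA and far higher in polysomes. MII transcriptomes had 2.06, 2.23 and 0.714 CPM, and MII pools 82.6 and 40.4, a 36.5-fold difference (log2 5.19, SE 0.68, adjusted p = 6.60e-07). In morulae the transcriptomes had 32.7, 40.3 and 16.3 CPM and the pools 754 and 998, 29.4-fold higher (log2 4.88, SE 0.64, adjusted p = 1.40e-06). Blastocyst transcriptomes rose to 166, 172 and 175 CPM with the pools at 947 and 736, and the difference was 4.91-fold (adjusted p = 0.00336). The groups did not overlap at any of these 3 stages. The 8-cell stage was the exception to this separation. There the pools had 18.9 and 72.0 CPM and the transcriptomes 19.5, 3.50 and 3.74, so pool A lay below transcriptome A, and the 5.09-fold call (adjusted p = 0.00190) was lost without pool B (log2 1.08, adjusted p = 0.154). In pool A 99.8% of the counts came from F8.

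DGAT1, which completes triacylglycerol, kept a polysome level of at least 44.8 CPM in every pool of every stage while its whole-cell level was low until the blastocyst. GV transcriptomes had 17.4, 13.4 and 13.1 CPM against 140 and 170 in the pools, 10.6-fold higher (log2 3.40, SE 0.39, adjusted p = 2.19e-07). After maturation the transcriptomes fell to 4.35, 4.97 and 2.02 CPM and the pools had 96.8 and 110, 27.2-fold higher (log2 4.77, SE 0.41, adjusted p = 9.19e-10). The difference was 11.2-fold in 2-cell embryos, 8.47-fold in 8-cell embryos and 5.27-fold in morulae, each called. These 5 calls held without any single library. In blastocysts the transcriptomes had 46.2, 49.3 and 61.6 CPM and the pools 82.9 and 54.8, which overlapped, and the difference was not called (log2 0.39, SE 0.38, adjusted p = 0.416).

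PNPLA2, the lipase that opens triacylglycerol breakdown, had few whole-cell counts. GV transcriptomes held 4, 2 and 0 counts (0.304, 0.205 and 0 CPM, where 3 counts correspond to between 0.228 and 0.308 CPM), and GV pools held 220 and 221 counts, or 5.55 and 5.97 CPM. Polysomes were called higher in GV oocytes (log2 4.98, SE 1.01, adjusted p = 0.000352), MII oocytes (16.9-fold), 2-cell embryos (8.02-fold), morulae (11.8-fold) and blastocysts (6.69-fold, adjusted p = 0.0179). Of the counts of morula pool A, 96.3% came from F10, and the morula transcriptomes held 9, 8 and 0 counts. The blastocyst call was lost without pool B (adjusted p = 0.0610), transcriptome B (0.0742) or transcriptome C (0.0595). Pools of 8-cell embryos had only 1.03 and 1.06 CPM, level with the highest of their transcriptomes (1.03, 0.179 and 0.609), and were not called (log2 0.77, adjusted p = 0.473). With F7 added to the pool this difference became log2 3.93 and was called (adjusted p = 0.00232), since F7 of gradient A alone held 60.4 CPM.

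**Figure D2:**
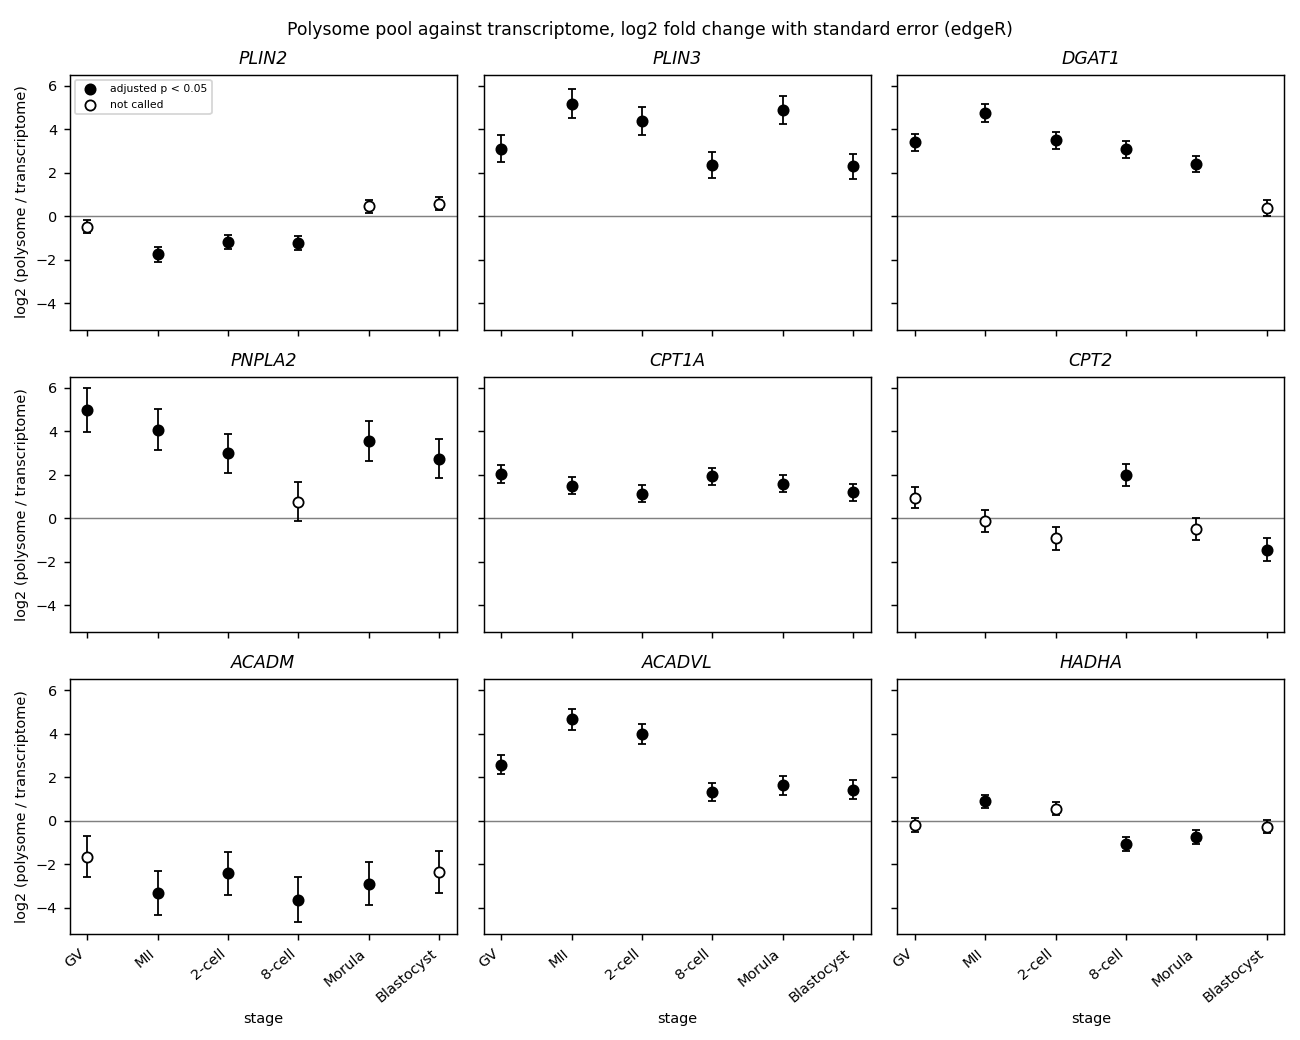
Log2 ratio of the polysome pools (2 per stage) to the transcriptomes (3 per stage) from edgeR, with its standard error, for each gene and stage; filled points are called at an adjusted p below 0.05. DGAT1 goes from 4.77 in MII oocytes to 0.39 in blastocysts, ACADM lies below 0 at all 6 stages, and PLIN2 crosses 0 between the 8-cell stage and the morula.

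CPT1A, the gate of mitochondrial fatty acid entry, was higher in polysomes at each stage by between 2.20-fold in 2-cell embryos and 4.13-fold in GV oocytes. This was not particular to polysomes, as F3-F5 had CPT1A called higher than the transcriptomes at 5 stages. GV transcriptomes had 7.06, 6.46 and 4.46 CPM and the pools 26.7 and 22.8 (adjusted p = 0.000237). In 8-cell embryos the transcriptomes had 26.6, 43.2 and 44.5 CPM and the pools 100 and 194, 3.87-fold higher (adjusted p = 0.000208). At all 6 stages both pools lay above all transcriptomes. The GV and 8-cell calls held without any single library. The others were lost without 1 pool: MII without pool A (log2 0.77, adjusted p = 0.171), morula without pool B (0.72, adjusted p = 0.170), blastocyst without pool B (0.95, adjusted p = 0.145) and 2-cell without pool B (0.94, adjusted p = 0.129), the last also without transcriptome B (adjusted p = 0.0760).

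CPT2, which releases the acyl group inside the mitochondrion, showed no such steady excess. It was called higher in 8-cell polysomes, where the pools had 46.8 and 60.7 CPM and the transcriptomes 20.2, 10.8 and 8.87 (log2 2.01, SE 0.50, adjusted p = 0.00150). All of the 1142 counts of 8-cell pool A came from F10, with 0 in F8 and F9, and with F8 and F9 alone the difference was log2 1.34 with an adjusted p of 0.274. In blastocysts CPT2 was called lower in polysomes, at 5.70 and 14.3 CPM against 25.3, 22.8 and 33.2 (log2 -1.44, adjusted p = 0.0332), and this call was lost without pool A (-0.94, adjusted p = 0.262) or transcriptome C (-1.29, adjusted p = 0.0857).

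ACADM, the medium-chain acyl-CoA dehydrogenase, was the one member whose 20 fraction libraries lay below all 3 transcriptomes at every stage. GV transcriptomes had 21.4, 26.8 and 27.1 CPM and GV pools 9.16 and 6.73. MII transcriptomes had 64.5, 50.4 and 79.0 CPM and the pools 5.01 and 7.87, 10.0-fold lower (log2 -3.33, SE 1.02, adjusted p = 0.00782). In 8-cell embryos pool A held 0 counts, which allows up to 0.123 CPM, and pool B 8.43 CPM, against 56.3, 53.0 and 49.1 CPM in transcriptomes (log2 -3.63, SE 1.04, adjusted p = 0.00475). The spread of this gene between pools was wide, and GV oocytes (log2 -1.66, adjusted p = 0.165) and blastocysts (log2 -2.36, adjusted p = 0.0545) missed the threshold although their groups did not overlap. The MII call was lost without pool A (adjusted p = 0.0716) and the morula call (7.47-fold lower, adjusted p = 0.0180) without pool A (adjusted p = 0.110). The 2-cell call (log2 -2.43, adjusted p = 0.0407) was lost without pool B (log2 -1.54, adjusted p = 0.273), transcriptome A (adjusted p = 0.0764) or transcriptome B (adjusted p = 0.0701).

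ACADVL, the very long-chain acyl-CoA dehydrogenase, took the opposite side. GV transcriptomes had 20.9, 10.0 and 16.0 CPM and pools 72.6 and 114, 5.94-fold higher (adjusted p = 5.20e-05). MII transcriptomes had 4.58, 7.70 and 4.76 CPM and pools 193 and 91.9, again without overlap (log2 4.65, SE 0.48, adjusted p = 1.33e-08). The 2-cell difference was 15.6-fold (adjusted p = 1.72e-07). Thus ACADM and ACADVL, which act at the same step on different chain lengths, were called in opposite directions at 4 of 6 stages. This was not particular to polysomes, as F3-F5 had ACADVL called higher and ACADM lower at all 6 stages. From the 8-cell stage on the ACADVL excess in F8-F10 was smaller, at log2 1.32, 1.63 and 1.42. The 8-cell call (adjusted p = 0.0122) was lost without pool A (log2 0.84, adjusted p = 0.159), of whose counts 99.9% came from F9, or without transcriptome B (adjusted p = 0.0539). The morula call was lost without pool B (log2 1.04, adjusted p = 0.0893), and the blastocyst call without pool A (adjusted p = 0.130) or transcriptome A (adjusted p = 0.0519).

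HADHA, of the trifunctional protein, changed sides between stages. GV transcriptomes had 151, 177 and 151 CPM and pools 119 and 159, which overlapped (log2 -0.20, adjusted p = 0.644). It was called higher in MII polysomes, at 114 and 138 CPM against 56.3, 80.1 and 68.3 (1.85-fold, adjusted p = 0.0158), and lower in 8-cell polysomes, at 30.1 and 23.3 CPM against 84.5, 42.7 and 41.6 (2.11-fold, adjusted p = 0.00611). The morula call (1.69-fold lower, adjusted p = 0.0475) stood at the threshold. The MII call was lost without pool B (adjusted p = 0.123) or transcriptome A (adjusted p = 0.0729), and the 8-cell call without pool B (adjusted p = 0.0570) or transcriptome A (adjusted p = 0.0611). The morula call was lost without pool A (adjusted p = 0.277) or without transcriptome A (0.0775), B (0.0784) or C (0.0701).

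Whether these differences belonged to the heavy end of the gradient was examined by putting lighter fractions in the place of F8-F10, an alternative added after the data had been seen. With F3-F5 in that place, 5, 6, 6, 5, 5 and 1 members were called higher and 1, 2, 1, 1, 2 and 1 lower from GV oocyte to blastocyst, beside 52.8%, 59.6%, 48.5%, 71.4%, 58.9% and 42.9% of all genes in either direction. With F1-F2 the counts were 5, 4, 3, 2, 3 and 0 higher and 2, 2, 1, 3, 2 and 1 lower, beside 54.6%, 58.2%, 44.2%, 64.2%, 47.4% and 25.3%. DGAT1 in GV oocytes was higher by log2 3.69 in F3-F5 and 4.79 in F1-F2, against 3.40 in F8-F10, and PNPLA2 by 6.54 and 7.68 against 4.98. ACADM was called lower at all 6 stages both in F3-F5 and in F1-F2. Its log2 differences lay between -7.97 and -2.53 in F3-F5 and at or below -3.43 in F1-F2, against -3.63 to -1.66 in F8-F10. The ACADM deficit was thus measured in light fractions as well as in heavy ones. The GV excess of DGAT1 and PNPLA2 was thus measured in light fractions as well as in heavy ones. Over the 6 stages DGAT1 was called higher in F3-F5 at 5 and in F1-F2 at 5, and PNPLA2 at 5 and 4. ACADVL was called higher at 6 and 3, and PLIN3 at 5 and 4, with PLIN3 lower in F1-F2 at 1. PLIN2 was different in 2-cell embryos, where F3-F5 lay above the transcriptome (log2 0.76, adjusted p = 0.0262) and F8-F10 below it (log2 -1.19). CPT1A was called higher in F3-F5 at 5 stages and in F1-F2 at 1. Its log2 differences lay between 0.93 and 3.07 in F3-F5, against 1.14 to 2.04 in F8-F10. PLIN3 in F1-F2 of 8-cell embryos had 0, 0, 0.247 and 0.405 CPM, below the transcriptomes. Its F8-F10 pools had 18.9 and 72.0 CPM there, and pool A lay below transcriptome A (19.5 CPM).

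**Figure D3:**
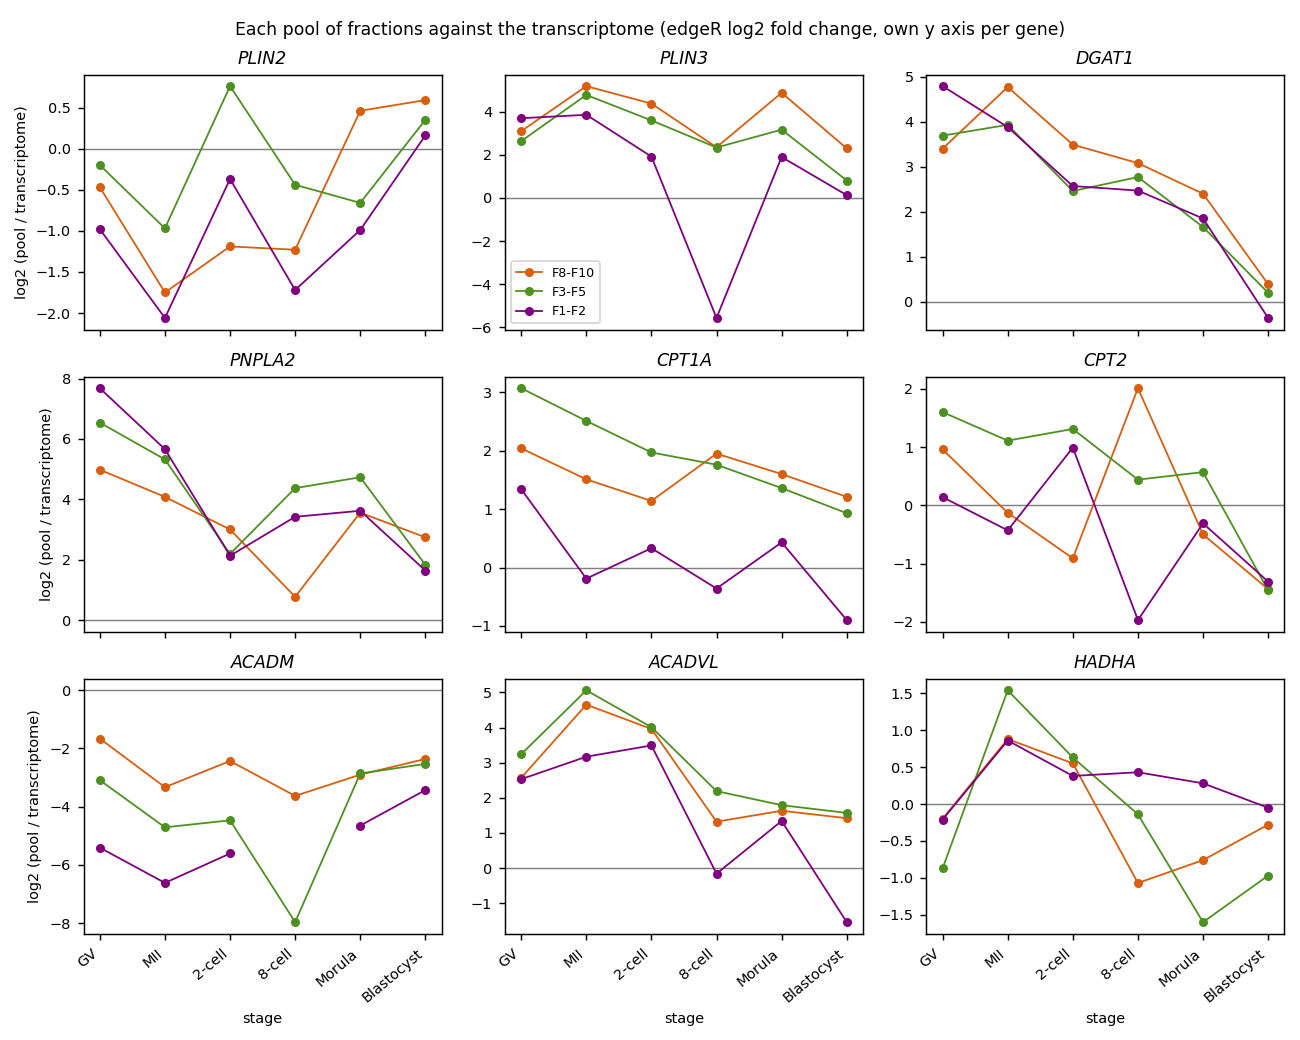
Log2 ratio of 3 pools of fractions (F8-F10, F3-F5 and F1-F2; 2 gradients each) to the transcriptomes (3 per stage) from edgeR, by stage, with an own y axis for each gene. The 3 lines run together for DGAT1, and lie apart for CPT1A, where F1-F2 is lowest; the F1-F2 point of ACADM in 8-cell embryos is left out because both fractions held 0 counts in both gradients.

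Along the gradient itself, F8-F10 was set against F3-F5 in a model of 24 pools. Of 54 tests 1 was called, PNPLA2 in 8-cell embryos, where 9.35% of all genes were called. There F8-F10 had 0.933 and 0.941 CPM and F3-F5 15.3 and 8.23, 12.5-fold lower at the heavy end (log2 -3.64, SE 0.88, adjusted p = 0.0190). The call was lost without the light pool (adjusted p = 0.0699) or the heavy pool (adjusted p = 0.0826) of gradient A. With the gradient as a block, which this comparison allows because both pools come from 1 lysate, the count was 1 as well. At the other 5 stages 0 members were called by edgeR's quasi-likelihood test, with 0, 1, 2, 2 and 1 at an unadjusted p below 0.05 in GV oocytes, MII oocytes, 2-cell embryos, morulae and blastocysts. DESeq2 called 0, 0, 1, 0 and 0 there, and the share of all genes called was 0.498%, 0.437%, 0%, 1.59% and 1.43%.

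PLIN2 in 2-cell embryos differed between heavy and light pools without a call. F3 held 2092 and 1640 CPM in gradients A and B, F4 1839 and 1200, and F10 373 and 346, in values scaled over all 138 libraries. F3-F5 had 1569 and 1305 CPM and F8-F10 392 and 357 (log2 -1.94, SE 0.40), which did not overlap; the unadjusted p was 0.000150 and the adjusted p 0.231, with 0 of all genes called at that stage. In morulae PLIN2 was highest in F10 of both gradients, at 900 and 1246 CPM, and F8-F10 exceeded F3-F5 by log2 1.01 (SE 0.39, adjusted p = 0.175). The MII profile of PLIN2 contains the library that stood apart: F10 held 518 CPM in gradient A and 8.04 in gradient B. Without F10 the MII difference from the transcriptome was log2 -1.76 (adjusted p = 1.40e-05), close to the value with it.

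PLIN3 lay higher in F8-F10 than in F3-F5 in blastocysts and morulae, though neither difference was called. Blastocyst F10 held 1186 and 832 CPM against 218 and 205 in F3, and the pools differed by log2 1.33 (SE 0.61, adjusted p = 0.303). In morulae F8-F10 had 762 and 877 CPM and F3-F5 328 and 213 (log2 1.60, SE 0.61, adjusted p = 0.166). Both pools of F8-F10 exceeded both of F3-F5 at these 2 stages, without a call. DGAT1 and PNPLA2 in GV oocytes ran the other way, as F1 of DGAT1 had 451 and 611 CPM against 89.2 and 151 in F10, and F1 of PNPLA2 37.8 and 37.3 against 6.94 and 0.322. CPT1A at the GV stage had 42.4 and 36.5 CPM in F3-F5 against 24.7 and 21.0 in F8-F10. Its MII values were 57.0 and 45.5 against 34.1 and 15.7, and its 2-cell values 57.9 and 43.6 against 25.4 and 32.2. From the 8-cell stage on its light and heavy pools overlapped, and it was not called at any stage. The profile of 8-cell embryos was broken for low members: ACADM was 0 in 8 of 10 fractions of gradient A and 6 of gradient B, and CPT2 in 4 and 2.

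**Figure D4:**
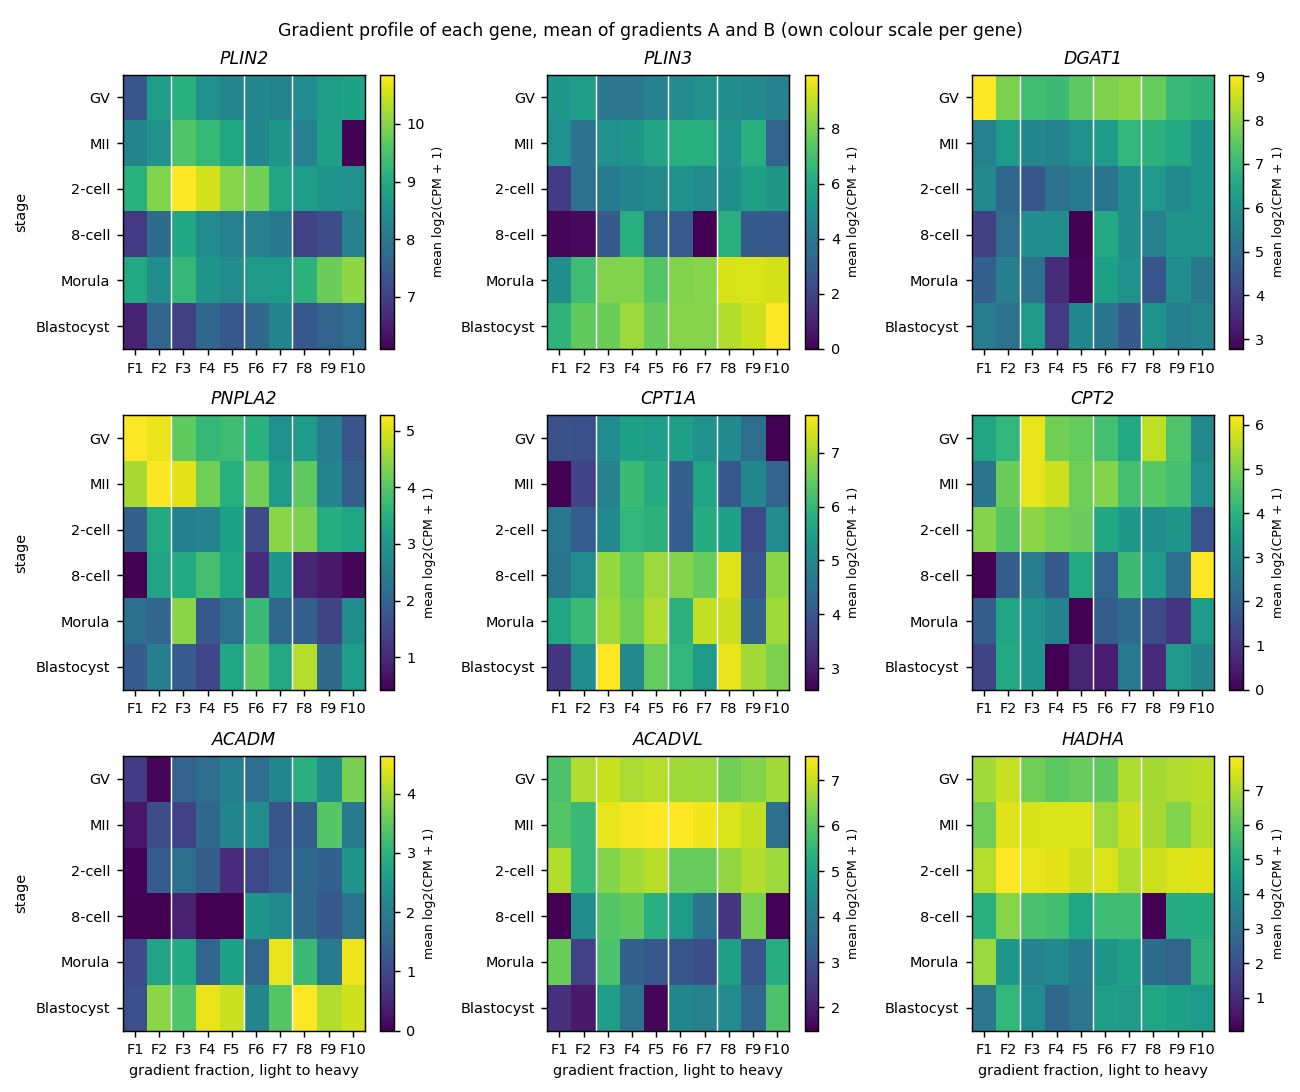
Mean log2(CPM + 1) of gradients A and B for each fraction (F1 to F10, light to heavy, x axis) and stage (y axis), with a colour scale of its own for each gene; white lines part F1-F2, F3-F5, F6-F7 and F8-F10. PLIN2 is brightest in F3 of 2-cell embryos, PLIN3 in F8-F10 of morulae and F10 of blastocysts, and DGAT1 in F1 of GV oocytes; the dark MII F10 cell of PLIN2 averages 518 and 8.04 CPM.

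Over the whole period, from GV oocyte to blastocyst, 5 members rose (27.8% of all genes did) and 2 fell (28.5%; 56.4% in either direction) in the transcriptome, and 2 rose (24.9%) and 5 fell (29.9%; 54.8%) in polysomes. PLIN3 rose most, 50.8-fold in the transcriptome (log2 5.67, SE 0.66, adjusted p = 1.30e-07) and 29.1-fold in polysomes (log2 4.86, SE 0.76, adjusted p = 1.18e-05). CPT1A rose 12.4-fold and 6.97-fold (adjusted p = 5.74e-08 and 2.44e-05). HADHA fell in both, 4.03-fold and 4.25-fold (adjusted p = 2.47e-06 and 2.72e-05). In these 3 genes all blastocyst libraries lay beyond all GV libraries, in both readouts, and the calls held without any single library.

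DGAT1 changed in opposite directions, up 3.58-fold in the transcriptome (log2 1.84, SE 0.35, adjusted p = 0.000103) and down 2.25-fold in polysomes (log2 -1.17, SE 0.42, adjusted p = 0.0212). The polysome call was lost without GV pool B (log2 -1.03, adjusted p = 0.107) or blastocyst pool B (log2 -0.87, adjusted p = 0.185). PLIN2 fell 3.64-fold in the transcriptome (adjusted p = 6.63e-06) and 1.75-fold in polysomes (adjusted p = 0.0480). The second of these was lost in turn without each of its 4 pools, GV A (adjusted p = 0.0685), GV B (0.184), blastocyst A (0.0587) and blastocyst B (0.275). PNPLA2 and ACADM rose in the transcriptome, 12.3-fold (adjusted p = 0.00278) and 5.49-fold (adjusted p = 0.0150), the latter not called without GV transcriptome A (adjusted p = 0.0531), and neither was called in polysomes (adjusted p = 0.235 and 0.139). The PNPLA2 fold is coarse, as it rested on 4, 2 and 0 counts in GV and 12, 6 and 10 in blastocyst transcriptomes. CPT2 and ACADVL fell in polysomes, 3.24-fold and 2.39-fold (adjusted p = 0.0141 and 0.0323). The CPT2 call was lost without GV pool A (adjusted p = 0.0647) or blastocyst pool A (0.159), and the ACADVL call without GV pool B (0.215) or blastocyst pool B (0.216). In the transcriptome CPT2 (log2 0.70, adjusted p = 0.193) and ACADVL (log2 -0.11, adjusted p = 0.836) were not called.

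The order of stages differed between the genes. Transcriptome PLIN2 was highest in MII oocytes (mean 1329 CPM) and lowest in blastocysts (164 CPM), and its polysome level was highest in morulae (1119 CPM) and lowest in blastocysts (246 CPM), where it overlapped with 8-cell embryos (247 CPM). Transcriptome HADHA was highest in GV oocytes (160 CPM), overlapping with 2-cell embryos (142 CPM). Polysome PLIN3 was highest in morulae (876 CPM) and blastocysts (841 CPM), which overlapped, and the 4 earlier stages lay between 28.9 and 61.5 CPM.

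Maturation was the first step. From GV to MII, transcriptome PLIN2 rose 2.23-fold (adjusted p = 0.00420) while DGAT1 fell 3.86-fold (adjusted p = 0.000328), HADHA 2.34-fold (adjusted p = 0.00251) and ACADVL 2.75-fold (adjusted p = 0.0130), which makes 4 of 9 (18.6% of all genes called). The ACADVL call was lost without GV transcriptome A (adjusted p = 0.0809) or MII transcriptome A (0.0631) or C (0.0674). In polysomes 0 of 9 were called from GV to MII in edgeR's quasi-likelihood test (5.43% of all genes), 0 had an unadjusted p below 0.05 and DESeq2 called 0. The difference between polysome and transcriptome change was tested gene by gene and called at this step for ACADVL alone (log2 2.07, SE 0.63, adjusted p = 0.0359; 10.6% of all genes). It was not called without GV pool A (adjusted p = 0.193) or B (0.0577), MII pool A (0.218), GV transcriptome A (0.0967) or C (0.0615), or MII transcriptome A (0.0749) or C (0.0824). The cumulus cell markers moved in both directions at this step. Of the 9 markers, 6 had a mean of at least 1 CPM in MII transcriptomes against 3 in GV transcriptomes, and the sum without STAR was 284 to 377 CPM against 29.8 to 39.2. STAR itself had 154 to 199 CPM against 481 to 622, so that the sum of all 9 was 467 to 577 CPM in MII and 517 to 651 in GV transcriptomes. The part of this in the members' levels was not tested.

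From MII to 2-cell embryos, 1 member was called in the transcriptome (13.1% of all genes), HADHA, which rose 2.08-fold (log2 1.05, adjusted p = 0.0116) and was not called without MII transcriptome A (adjusted p = 0.0734) or 2-cell transcriptome A (0.0512). In polysomes edgeR's quasi-likelihood test called 0 (8.65% of all genes), 2 had an unadjusted p below 0.05, and DESeq2 called 1, which was CPT2 (edgeR log2 -1.51, adjusted p = 0.0964).

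The step from 2-cell to 8-cell embryos, came around major embryonic genome activation in cattle. In the transcriptome PLIN3 (4.13-fold), CPT1A (2.52-fold) and ACADVL (2.34-fold) rose and HADHA (2.52-fold) and PLIN2 (1.70-fold) fell, 5 of 9 (52.3% of all genes). In polysomes CPT2 (6.82-fold) and CPT1A (4.43-fold) rose and PNPLA2 (13.0-fold), HADHA (7.76-fold) and ACADVL (2.66-fold) fell, also 5 of 9 (47.3%). HADHA was the clearest of these, from 204 and 211 CPM in 2-cell pools to 30.1 and 23.3 in 8-cell pools (log2 -2.96, SE 0.36, adjusted p = 7.56e-07).

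Several of these calls rested on single libraries. Without 8-cell transcriptome A, in which PLIN3 had 19.5 CPM against 3.50 and 3.74, the PLIN3 rise was log2 0.74 (adjusted p = 0.251) and the ACADVL rise 0.83 (adjusted p = 0.108). That library had 146 CPM of CYP11A1, a steroidogenic gene of granulosa and cumulus cells, against 51.1 and 61.3 in transcriptomes B and C. CYP11A1 had 33.3 and 41.9 CPM in the 8-cell pools and 0.0761, 0.160 and 0 in 2-cell transcriptomes. STAR went the other way, from 224, 259 and 281 CPM in 2-cell to 68.4, 35.8 and 33.6 in 8-cell transcriptomes. All 9 cumulus markers summed to 336, 365 and 384 CPM in 2-cell and to 418, 173 and 191 in 8-cell transcriptomes. The part of these markers in the result was not tested. The PLIN2 fall was not called without 2-cell transcriptome A (adjusted p = 0.0758) or B (0.0540) or 8-cell transcriptome B (0.0899) or C (0.111). The polysome fall of ACADVL was not called without 2-cell pool A (adjusted p = 0.0519) or B (0.0746) or 8-cell pool B (0.136), nor with F7 added to the pools. The CPT2 rise was not called with F8 and F9 alone (log2 1.83, adjusted p = 0.228). PLIN2, not called in polysomes at this step (log2 -0.81, adjusted p = 0.0534), was called with F8 and F9 alone (log2 -1.51, adjusted p = 0.000293), and with F7 added the PNPLA2 fall was log2 -0.92 (adjusted p = 0.496).

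Between 8-cell embryos and morulae the droplet coat genes rose in polysomes. PLIN3 went from 18.9 and 72.0 CPM to 754 and 998 (log2 4.27, SE 0.74, adjusted p = 0.000128), and PLIN2 from 346 and 148 CPM to 914 and 1324 (log2 2.18, SE 0.35, adjusted p = 6.12e-05). Morula pools lay above 8-cell pools in both genes, and both calls held without any single library. CPT2 fell back 5.96-fold (adjusted p = 0.00160) and PNPLA2 rose 5.98-fold (adjusted p = 0.0483), so 4 of 9 were called (37.0% of all genes). The PNPLA2 call was lost in turn without each of its 4 pools (adjusted p between 0.0589 without morula pool A and 0.115 without 8-cell pool A) and, with F7 in the pool, the change turned to log2 -0.57. In the transcriptome PLIN3 alone was called, rising 3.33-fold (adjusted p = 0.0346; 15.4% of all genes), with 8-cell and morula libraries that overlapped, and it was not called without 8-cell transcriptome B (adjusted p = 0.150) or C (0.153) or morula transcriptome A (0.0885) or B (0.133).

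From morula to blastocyst PLIN2 fell in both readouts, 4.97-fold in the transcriptome (log2 -2.31, SE 0.29, adjusted p = 3.69e-06) and 4.55-fold in polysomes (log2 -2.19, SE 0.35, adjusted p = 0.000341). DGAT1 rose 4.79-fold (adjusted p = 5.43e-05) and PLIN3 5.75-fold (adjusted p = 0.00179) in the transcriptome alone, so that 3 members were called there (23.2% of all genes) and 1 in polysomes (14.2%). For both genes the difference between the polysome and the transcriptome change was called, at log2 -2.00 (SE 0.54, adjusted p = 0.0183) for DGAT1 and -2.58 (SE 0.85, adjusted p = 0.0476) for PLIN3. The DGAT1 difference was not called without morula pool A (adjusted p = 0.0550) or blastocyst pool B (0.103). The PLIN3 difference was not called without 9 of its 10 libraries in turn, the exception being morula pool A, with an adjusted p between 0.0512 without morula transcriptome B and 0.168 without blastocyst pool B.

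Over all 5 steps, 8 differences between polysome and transcriptome change were called in 45 tests (9.87% of all gene and step pairs), 3 positive and 5 negative. From 2-cell to 8-cell embryos these were CPT2 (log2 2.93, SE 0.73, adjusted p = 0.0104), ACADVL (-2.64, SE 0.64, adjusted p = 0.00852) and HADHA (-1.62, SE 0.44, adjusted p = 0.0171), and from 8-cell embryos to morulae PLIN2 (1.69, SE 0.44, adjusted p = 0.0130) and CPT2 (-2.52, SE 0.72, adjusted p = 0.0240). These 5 came beside 12.2% and 12.5% of all genes at the respective steps, and beside 12.3% from morula to blastocyst. The ACADVL difference at the 8-cell step and that of PLIN2 held without any single library. The first CPT2 difference was not called without 2-cell pool A (adjusted p = 0.0515), and the second without morula pool A (0.102), 8-cell transcriptome C (0.0542) or morula transcriptome A (0.0545). The HADHA difference was not called without 2-cell pool B (adjusted p = 0.0527) or 8-cell transcriptome A (0.0568). From MII to 2-cell embryos 0 were called (1.81% of all genes), with 1 at an unadjusted p below 0.05 and 0 by DESeq2.

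**Figure D5:**
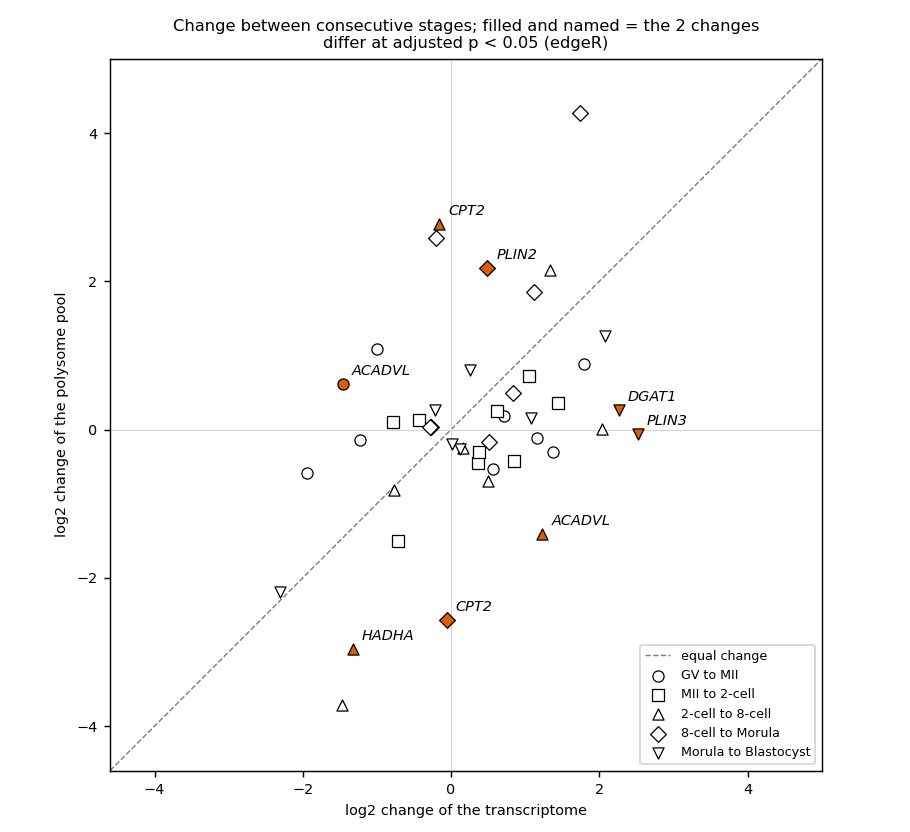
Log2 change of the polysome pools (y axis) against log2 change of the transcriptomes (x axis) for 9 genes at 5 steps between consecutive stages, from edgeR; symbols give the step, the dashed line equal change, and filled, named points the 8 cases in which the 2 changes differed at an adjusted p below 0.05. CPT2 lies far above the line from 2-cell to 8-cell embryos and far below it from there to the morula, and DGAT1 and PLIN3 lie to its right from morula to blastocyst.

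A wider list of 89 lipid genes in 8 groups was examined beside the members, and 85 of them were tested. Taking the stages in order, 29, 34, 34, 32, 32 and 22 of them were higher in polysomes than in the transcriptome and 10, 18, 17, 29, 17 and 15 were lower, beside the shares of all genes given above. The other genes of the carnitine system had 5 of 6 higher and 0 lower at the GV stage, and 5 higher and 1 lower at the MII and at the 2-cell stage (median log2 2.00, 3.54 and 3.25). At the 8-cell stage 4 were higher and 1 lower, at the morula stage 3 were higher and 1 lower, and at the blastocyst stage 3 were higher and 0 lower (median log2 2.13, 2.21 and 0.78). Fatty acid uptake and activation was split, with 3 of 13 higher and 4 lower in GV oocytes and 3 higher and 7 lower in 8-cell embryos. Mitochondrial beta-oxidation had 5 of 16 higher and 3 lower in GV oocytes, 6 and 6 in 8-cell embryos and 5 and 1 in blastocysts. Lipid droplet proteins had 2 of 11 higher and 1 lower in GV oocytes, and 3 and 2 in 8-cell embryos. In the same order, glycerolipid and sterol ester synthesis had 6 of 16 and 2, then 7 and 3. Lipolysis had 1 of 4 and 0, then 2 and 1. Peroxisomal beta-oxidation had 4 of 10 and 0, then 3 and 6. Malonyl-CoA and transcriptional control had 3 of 9 and 0, then 4 and 3. Of all genes 22.2% and 17.7%, then 28.0% and 31.0% were called.

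By a rule of size (the 2 called genes of largest log2 fold change in each direction whose libraries did not overlap), SLC27A1, a fatty acid transporter, had a mean of 129 CPM in GV polysomes and 0.831 in transcriptomes (155-fold, adjusted p = 1.32e-09), and FASN, fatty acid synthase, 202 and 1.66 CPM (121-fold, adjusted p = 5.80e-09). On the other side CD36, a fatty acid scavenger receptor, had 12.7 and 58.8 CPM (4.63-fold lower, adjusted p = 0.00697, and 0.0748 without GV pool B) and DBI, the acyl-CoA binding protein, 20.5 and 91.9 CPM (4.48-fold lower, adjusted p = 0.000861). Named by the same rule, the MII calls were GPAT2 (176 and 0.341 CPM, adjusted p = 1.61e-07) and SLC27A4 (29.5 and 0.0763 CPM) upwards, and CD36 (5.01 and 45.0 CPM) was among those downwards. In 2-cell embryos they were SLC27A1 (81.3-fold) and FASN (67.1-fold) upwards and ABCD2 (46.0-fold) and DECR1 (44.1-fold) downwards. In 8-cell polysomes LIPE, hormone-sensitive lipase, had 49.2 CPM against 0.286 (166-fold, adjusted p = 4.85e-06) and SLC27A4 78.5 against 0.615 (127-fold). CD36 and DECR1, an enzyme for unsaturated acyl chains, had 0 counts in both 8-cell pools, against means of 46.3 and 24.4 CPM, which makes them at least 453-fold and 239-fold lower by the floor of 3 counts per library.

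In morulae GPAT2 (41.5-fold) and AGPAT2 (24.9-fold), acyltransferases of glycerolipid synthesis, were higher in polysomes, and ABCD2 and SOAT2 had 0 counts in both pools against means of 1.38 and 0.714 CPM. The SOAT2 call (at least 6.18-fold lower, adjusted p = 0.0384) was lost without morula pool A (adjusted p = 0.115) or B (0.144), and without morula transcriptome B, the highest of the 3 (0.0859), the bound was 3.08-fold. In blastocysts HSD17B10 had 854 CPM in polysomes and 37.2 in transcriptomes (22.9-fold, adjusted p = 9.44e-10) and ECI1 115 and 6.25 (18.4-fold), both of mitochondrial beta-oxidation, while PPARGC1A and PLIN4 had 0 counts in both pools (at least 18.2-fold and 6.15-fold lower). The PLIN4 call (adjusted p = 0.0411) was lost without blastocyst pool A (adjusted p = 0.153) or B (0.160). From GV oocyte to blastocyst 21 of the 85 rose and 27 fell in the transcriptome and 20 rose and 30 fell in polysomes. These calls made 56.5% and 58.8% of the wider list, near the 56.4% and 54.8% of all genes. PPARG, a regulator of lipid storage genes, fell from a mean of 88.2 to 0.690 CPM in the transcriptome (139-fold, adjusted p = 0.000288), and AGPAT4 rose from 0.152 to 21.6 CPM (135-fold, adjusted p = 6.24e-05). CIDEC fell to 0 counts from 1.26 CPM (at least 1.80-fold) and FITM1 rose from 0 counts to 1.61 CPM (at least 5.75-fold). In polysomes CIDEA, a droplet fusion protein, went from 102 CPM to 0 counts (at least 787-fold lower), PPARGC1A from 22.1 CPM to 0 counts (at least 171-fold lower) and AGPAT4 from 0 counts to 107 CPM (at least 1368-fold higher). SOAT2 went from 0 counts to 7.09 and 0.255 CPM in blastocyst pools A and B. Its bound of 46.9-fold rested on pool A and was 3.26-fold without it, where the call was lost (adjusted p = 0.0823), as it was without GV pool A (0.0611) or B (0.0592).

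Between heavy and light fractions, 12 calls fell on 84 tested genes of the wider list, all from the 8-cell stage on, 8 higher at the heavy end and 4 lower. They made 2.38% of the 504 tests, near the 2.22% over all genes and stages, and the 8 calls of 8-cell embryos 9.52% against 9.35%. With library totals in place of TMM scaling the split was 11 and 1. In 8-cell embryos AGPAT5 (230 CPM in F8-F10 and 12.2 in F3-F5, adjusted p = 0.00539) and ETFA (26.6 and 4.90 CPM, adjusted p = 0.0202) were higher at the heavy end. ACAD9 (9.37 and 41.8 CPM, adjusted p = 0.0182) and GPAM (0 counts against 5.21 and 0.670 CPM, adjusted p = 0.0195) were lower there. The bound for GPAM was 31.9-fold, and 7.26-fold without light pool A. In morulae ACAD9 was higher at the heavy end (52.2 and 7.89 CPM, adjusted p = 0.0208), as was ACSL6 (76.5 and 5.36 CPM, adjusted p = 0.0406), and in blastocysts CROT (3.89 and 0.0905 CPM, adjusted p = 0.0374). Of these calls AGPAT5 alone was kept whichever single pool was left out (highest adjusted p 0.0413). ETFA was lost without light pool A (adjusted p = 0.0926) or B (0.0988) or heavy pool A (0.104), GPAM without light pool A (0.0732) or heavy pool A (0.0815) or B (0.0572), and ACAD9 of 8-cell embryos without any of the 4 pools (0.0508 to 0.0955). ACAD9 of morulae was lost without light pool A (0.0514), ACSL6 without light (0.0887) or heavy pool A (0.120), and CROT without light pool A (0.0541) or B (0.201) or heavy pool B (0.467).

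Likeness of pattern was measured by Pearson's r of log2(CPM + 1) across the 12 group means (6 stages in transcriptome and in polysomes), a description without a test, since the means share libraries and scaling. Among the members ACADVL and DGAT1 were most alike (r = 0.89), followed by PLIN3 and CPT1A (r = 0.87). ACADM was least like ACADVL (r = -0.80), and CPT1A least like HADHA (r = -0.80). Over the 14611 other genes, the pattern most like that of PLIN2 was KBTBD2 (r = 0.901), of PLIN3 LRP10 (0.979), of DGAT1 CORO7 (0.971), of PNPLA2 ABCB9 (0.963), of CPT1A FAM118A (0.988), of CPT2 TSSK4 (0.873), of ACADM UBL3 (0.982), of ACADVL DEPDC5 (0.977) and of HADHA WDR31 (0.973).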

How the data were processed

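Gene-level RNA-seq of 120 sucrose-gradient fraction libraries and 18 transcriptomes was analysed. The authors deposited expected counts per gene symbol for all 138 libraries, estimated with Salmon from reads and not normalised; 11.7% of values were not whole. The submitters' processing notes name the build UMD3.1 and the study's methods the annotation ARS-UCD1.2, so no coordinates are given. Salmon's version was not given in the sources used here. How reads of similar genes were split by Salmon could not be checked.

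From these, F8, F9 and F10 of each gradient were summed to 12 polysome pools, values were rounded, and 30 libraries (pools and transcriptomes) were fitted in 12 groups with edgeR 4.0.16 (R 4.3.3; filterByExpr, TMM, quasi-likelihood test, two-sided, Benjamini-Hochberg over 14612 genes). F8-F10 against F3-F5 were fitted in 24 pools over 14873 genes. CPM of the pools and transcriptomes use the TMM factors of the 30 libraries, and CPM of single fractions those of all 138, set on the 15385 genes that reached 1 CPM in 2 or more libraries. The fits were also run on simulated counts, drawn from 1 mean per gene with known changes added. These do not copy the zeros of single fractions, and the outcome is not used here. Floors stand for 3 counts per library and cover counting error only. Tables and plots used Python 3.11.15, pandas 2.3.3 and matplotlib 3.10.9.

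Groups and replicate letters were taken from the labels, which name biological replicates; p-values measure the spread between these pooled samples. Letters were not taken as pairs (correlation of deviations between -0.15 and 0.11 over transcriptomes and pools). These correlations cannot exclude pairing, since heavy and light pools of a gradient, which share a lysate, had only -0.08 to 0.17. The genes described, and the wider and marker lists, were chosen with earlier results of these data known. Of the wider list, the 2 called genes of largest log2 fold change in each direction without overlap of libraries were named at each stage or readout. The alternatives were the likelihood ratio test, DESeq2 1.42.0, RLE factors, library totals, no filter, a fold above 2, other pools of fractions, equal weights of fractions, letter and gradient blocks, stages fitted alone, and leaving out each library. Pools of F3-F5 or F1-F2 in the place of F8-F10, F1-F2 in the place of F3-F5, and F8 with F9 alone were added after the data had been seen. Coding sequences, promoters and proteins were not used here. A further result that the naming rule gave is not reported here.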

Additional observations from a re-analysis of the deposited data

Results flagged for a closer look

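In 8 cases the change of a gene between consecutive stages differed between polysomes and transcriptome in edgeR's test of the difference itself (polysome change minus transcriptome change, log2). From GV to MII the difference was 2.07 for ACADVL. From 2-cell to 8-cell embryos it was 2.93 for CPT2, -2.64 for ACADVL and -1.62 for HADHA. From 8-cell embryos to morulae it was 1.69 for PLIN2 and -2.52 for CPT2, and from morula to blastocyst -2.00 for DGAT1 and -2.58 for PLIN3. ACADVL from 2-cell to 8-cell and PLIN2 were the 2 of these that held without any single library. Of the polysome counts of CPT2 and ACADVL in 8-cell gradient A, 100% and 99.9% came from 1 fraction, F10 and F9. Of those of CPT2 in morula gradient B, 90.9% came from F10. Their part in the results was not tested.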

How the results depend on the processing

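Of 4293 recomputed values for the members, 4031 kept their direction and side of the threshold, 191 lost a call, 58 gained one and 13 reversed. A block on the letter within each stage left 22 of the 40 calls of polysomes against transcriptome. No source ties a letter of a pool to that of a transcriptome, so the letters were not taken as pairs. The correlations of deviations cannot decide this. Between same-lettered pools and transcriptomes 0 of 6 passed 0.1, but between heavy and light pools, which share a lysate, only 3 of 6 did. As a term across stages the letter changed none of the counts by over 1.5 times. With polysomes as F9 and F10, polysomes against transcriptome gave 28 calls in place of 40, and GV to blastocyst 10 in place of 14. The transcriptome changes between consecutive stages then gave 9 calls in place of 14, in a fit whose pools share the estimate of spread with the same transcriptomes. The differences of change gave 3 in place of 8, while with DESeq2 they gave 13. For heavy against light fractions, where 1 call was made, the likelihood ratio test gave 2, DESeq2 3, and F3-F4 against F9-F10 0. Leaving out each library in turn gave 37 to 40, 12 to 14, 9 to 10, 6 to 12, 11 to 14 and 0 to 2 calls for polysomes against transcriptome, transcriptome steps, polysome steps, differences of change, GV to blastocyst, and heavy against light.

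The reversed values were all under other pools of fractions, and their cause was not tested. With F3-F5 in the place of F8-F10, PLIN2 in 2-cell embryos went to log2 0.76. With F1-F2 they were CPT1A -0.19 (MII), -0.36 (8-cell) and -0.90 (blastocyst), ACADVL -0.16 (8-cell) and -1.54 (blastocyst), PLIN3 -5.57, HADHA 0.43 and CPT2 -1.97 (8-cell), and PLIN2 -0.99 and HADHA 0.28 (morula). With F7-F10, PNPLA2 from 8-cell to morula was -0.57. Against F1-F2 as the light end, PLIN3 of 8-cell embryos was 7.88. With library totals or RLE factors in place of TMM no call of a member reversed, although library totals moved the median of all genes by -0.29 from GV to MII in the transcriptome (higher genes made 17.4% of all calls there, against 41.4% with TMM) and by -0.57 in polysomes from GV to blastocyst. With 2 pools a group and genes at 0 in single fractions, differences of low genes such as PNPLA2 and ACADM were resolved only coarsely.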
